A study of Saccharomyces cerevisiae with 18 samples.

Results

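Aged budding yeast cells that lacked both stress transcription factor genes, MSN2 and MSN4, were compared with aged wild-type cells. The comparison used 6 of the 18 RNA sequencing libraries of the study, chosen by their labels as double deletion or wild type at 24 h, with 3 libraries in each group, and covered every gene and other feature that was counted. Aged double deletion cells came from strain CGY69.30 (MAT@ msn2::HphNT1 msn4::NatNT2), and aged wild-type cells from strain CGY4.51 (MAT@), so each genotype was represented by a single strain. Both grew in synthetic complete medium without biotin, with DAPA, a biotin precursor, 2% glucose, 2% MMP and pH 4.5. Their mother cells were biotinylated, bound to magnetic beads coated with streptavidin, and held in the flow chamber of a Ministat Aging Device for 24 h, from which newborn daughters are washed away. For reference, the same strains were also sequenced young, in exponential growth, and a strain that lacked MSN2 only (CGY61.46, MAT@ msn2::HphNT1) was sequenced at the same 24 h. The labels do not tell whether the replicates of a group were grown separately, so the tests weigh differences against a spread between libraries that may be technical only.

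Msn2 and Msn4 are related zinc-finger proteins that bind a short promoter element, the stress response element, and switch on genes for storage sugars, antioxidants and chaperones. In cells growing on plentiful glucose, protein kinase A holds them outside the nucleus, and stress or nutrient loss lets them enter it. The same conditions turn down genes for ribosome production, so the stress genes and the ribosome biogenesis genes are known to move in opposite directions.

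The 3 aged double deletion libraries held 7136185, 4078400 and 7110722 counts, and the 3 aged wild-type libraries 29230104, 38434804 and 41649952, so low genes were measured with fewer reads in the double deletion. Levels are given below in CPM, the counts scaled to library size with trimmed-mean factors. The first principal component over the 6 libraries held 65% of the variance and separated the strains, and the second held 18% and separated double deletion replicates 2 and 3. Features of the ribosomal DNA, with the gene RRT15 counted among them, took 0.433, 0.509 and 0.364% of counts in the aged double deletion against 0.0717, 0.076 and 0.064% in aged wild type. Most of the double deletion share was RRT15 alone, with 26487.5, 17963 and 21608 counts. In wild type RRT15 had 26.5, 69.5 and 63.5 counts. Mitochondrially encoded features took 0.285, 0.288 and 0.125% in the double deletion and 0.267, 0.278 and 0.237% in wild type, so double deletion replicate 3 stood apart. RNA came from whole cell samples, in which fewer cells of a type and less RNA per cell cannot be told apart.

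The stretches of promoter printed here carry the element that the deleted factors bind, ahead of 6 genes that stood much lower in aged double deletion cells. Each is 120 bases, at least 60 bases before the start codon, read 5′ to 3′ on the strand of the gene from the R64 reference genome of RefSeq. Capitals mark every match to AGGGG or, on the other strand, its reverse complement CCCCT. HSP12 encodes a small membrane-protecting stress protein, and its window lies at chrVI:106816-106935 (plus strand), where the annotation also places YFL015C. TSL1, a trehalose synthase subunit, lies behind chrXIII:70388-70507 (plus strand), and TPS1, the trehalose-6-phosphate synthase, behind chrII:490583-490702 (minus strand). GPH1, glycogen phosphorylase, has its window at chrXVI:860944-861063 (plus strand), and CTT1, the cytosolic catalase, at chrVII:654251-654370 (plus strand). SOL4, a 6-phosphogluconolactonase, has a single match, at chrVII:985792-985911 (plus strand). The last 5 windows held no annotated gene.
HSP12: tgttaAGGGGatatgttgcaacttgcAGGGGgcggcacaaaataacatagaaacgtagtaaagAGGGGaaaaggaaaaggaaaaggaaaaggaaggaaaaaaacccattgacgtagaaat
TSL1: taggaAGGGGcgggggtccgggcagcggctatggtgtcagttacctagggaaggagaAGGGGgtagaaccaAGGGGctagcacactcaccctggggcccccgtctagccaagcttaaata
TPS1: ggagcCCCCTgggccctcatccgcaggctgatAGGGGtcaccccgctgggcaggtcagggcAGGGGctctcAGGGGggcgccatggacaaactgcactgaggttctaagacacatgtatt
GPH1: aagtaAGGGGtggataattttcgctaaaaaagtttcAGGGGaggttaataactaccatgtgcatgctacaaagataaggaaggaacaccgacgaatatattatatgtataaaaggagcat
CTT1: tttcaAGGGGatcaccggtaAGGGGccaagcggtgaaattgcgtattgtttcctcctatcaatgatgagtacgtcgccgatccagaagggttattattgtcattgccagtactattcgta
SOL4: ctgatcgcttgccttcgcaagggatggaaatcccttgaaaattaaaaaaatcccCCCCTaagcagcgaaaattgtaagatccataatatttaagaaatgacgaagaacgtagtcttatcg

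Matches were counted on both strands in the 500 bases before the start codon of 5916 tested nuclear protein-coding genes. In all, 34.2% of these promoters held at least 1 AGGGG match. Among 204 genes that were at least 2-fold lower in the aged double deletion, 80.9% held a match, and among 1046 genes lower by less than that, 47.5% did. The share was 31.4% of genes that did not pass the test and 21.6% of the 1033 genes higher by less than 2-fold. The share of genes at least 2-fold lower was 1.0% of 3895 promoters with no match, 4.36% of 1537 with 1 match, 15% of 374 with 2, 32.5% of 83 with 3 and 55.6% of 27 with 4 or more. In the same order, the share of genes higher by any amount was 21.4, 12.8, 7.22, 4.82 and 3.7%. These shares are a description of the letters in a fixed window, not of binding.

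**Figure D1:**
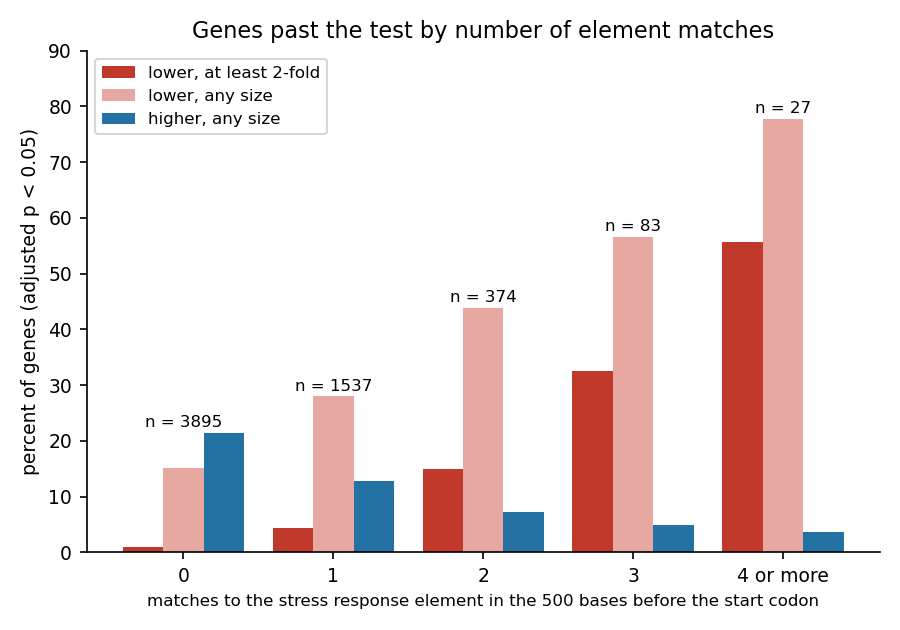
Percentage of genes (y axis) in classes by the number of AGGGG matches in the 500 bases before the start codon (x axis, both strands), for aged double deletion against aged wild type. Bars show genes at least 2-fold lower, lower by any amount and higher by any amount at an adjusted p under 0.05; the first share climbs through the classes, 1.0% with no match and 55.6% with 4 or more.

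The deleted genes were read first. MSN2 (YMR037C, chromosome XIII, 344403 to 346517, R64) stood at 3.98, 4.99 and 3.88 CPM in the aged double deletion against 31.7, 33.2 and 35.4 CPM in aged wild type. MSN4 (YKL062W, chromosome XI, 323228 to 325120) stood at 14.5, 12 and 13.6 CPM in the aged double deletion against 52.8, 48.8 and 53.0 CPM in aged wild type. Both groups of values were apart for both genes, with log2 fold changes of -2.99 ± 0.18 (SE) for MSN2 (adjusted p = 1.27e-11) and -1.93 ± 0.12 for MSN4 (adjusted p = 8.15e-11), but neither gene was at 0. The reads left on MSN4 amounted to 124, 60 and 115.5 deposited counts in the double deletion libraries, and counts per gene do not show which stretch of it they cover. The genes next to the deleted ones, MIH1 (0.12 ± 0.10, adjusted p = 0.411) and CCS1 (0.22 ± 0.09, adjusted p = 0.0598) beside MSN2, and YKL063C (-0.35 ± 0.14, adjusted p = 0.0616) and BLI1 (-0.14 ± 0.14, adjusted p = 0.475) beside MSN4, did not pass the test. CCS1 passed without double deletion replicate 2 (adjusted p = 0.0122) and with DESeq2 (adjusted p = 0.0304), and YKL063C passed as lower in a fit to only the 6 libraries compared (adjusted p = 0.00345).

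Of 6833 features tested, 2483 (36.3%) passed at an adjusted p under 0.05 in edgeR's quasi-likelihood test. Of these, 1135 (16.6%) were higher and 1348 (19.7%) lower in the aged double deletion. These shares over all features are the background for every list count below. With library totals in place of trimmed-mean scaling the split was 1327 higher and 985 lower, with the median of all features at a log2 fold change of 0.083 instead of -0.01, so a small difference in either direction depends on the scaling. With all libraries thinned to the smallest total, 2173 of 6425 features passed. The large differences leaned down: 223 features (3.26%) were at least 2-fold lower and 43 (0.629%) at least 2-fold higher. Library values of the groups did not overlap for 1671 features (24.5%) with the double deletion above and 1867 (27.3%) with it below.

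Genes known to be switched on by Msn2 and Msn4 were the lowest group. In a list of 64 such genes, 62 fell and none rose, 53 fell at least 2-fold, and the median log2 fold change was -1.76, against -0.01 over all features. In the same 62 genes every double deletion library lay below every wild-type library. The other members were PRB1, a vacuolar protease (-0.20 ± 0.11, adjusted p = 0.151, and 0.0278 without double deletion replicate 2), and ALD2, an aldehyde dehydrogenase (0.08 ± 0.14, adjusted p = 0.691). Leaving out any library or changing the scaling, filter or test left 59 to 62 lower.

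HSP12 had 96.2, 92.1 and 101 CPM in the aged double deletion against 1690, 1740 and 1540 CPM in aged wild type (log2 fold change -4.10 ± 0.14, adjusted p = 5.18e-14). DDR2, a small stress protein induced by DNA damage, had 5.15, 6.39 and 4.70 CPM in the aged double deletion against 51.0, 55.0 and 47.2 CPM in aged wild type (-3.27 ± 0.20). HSP26, a small heat shock protein that binds unfolded proteins, had 51.7, 55.1 and 54.3 CPM in the double deletion against 287, 301 and 297 CPM in wild type (-2.46 ± 0.10). The 3 double deletion values of each gene were tightly grouped and lay far under the wild-type values. Further stress proteins of the list fell as well: RTC3 by 3.61, HOR7 by 2.71, SPI1 and YGP1 of the cell surface by 2.21 and 2.17, and the chaperone HSP42 by 1.52 on the log2 scale.

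**Figure D2:**
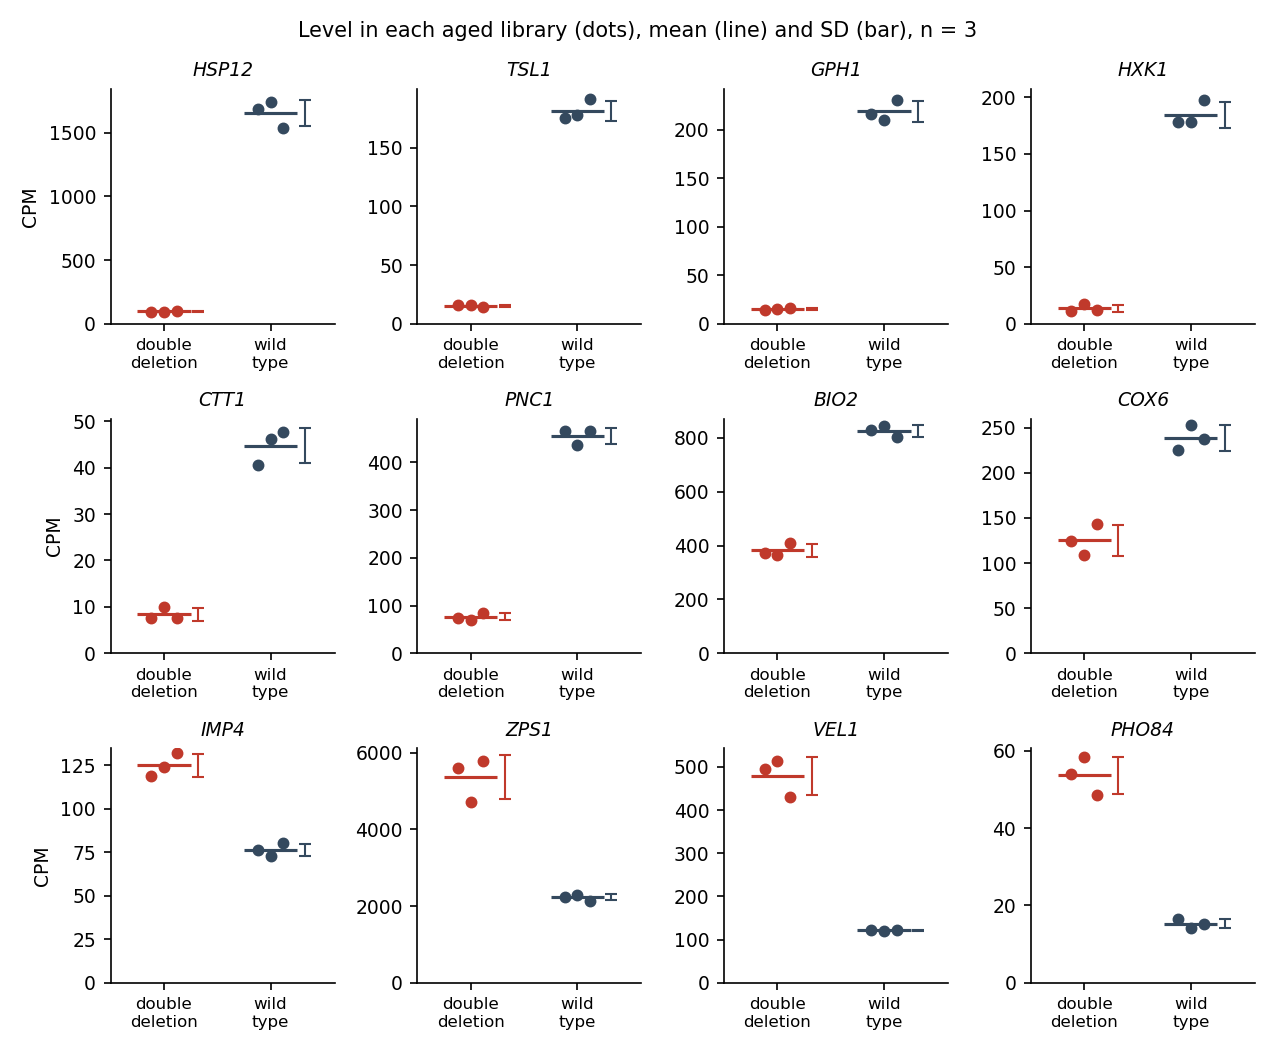
CPM in each of the 3 aged double deletion libraries (left of each panel) and 3 aged wild-type libraries (right) for 12 genes; dots are libraries, the line is the mean and the bar the SD, and each panel has its own axis. HSP12, TSL1, GPH1, HXK1, CTT1, PNC1, BIO2 and COX6 lie lower in the double deletion, and IMP4, ZPS1, VEL1 and PHO84 higher, with no overlap between groups in any panel.

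Trehalose, a disaccharide that protects membranes and proteins, is made by a complex of Tps1, Tps2, Tsl1 and Tps3. All 9 trehalose genes tested fell, with a median of -1.56. TSL1 had 15.7, 16.0 and 13.9 CPM in the aged double deletion against 175, 178 and 191 CPM in aged wild type (-3.58 ± 0.10, adjusted p = 3.6e-16). TPS1 had 55.6, 68.1 and 59.0 CPM in the double deletion against 259, 251 and 270 CPM in wild type (-2.10 ± 0.15, adjusted p = 1.33e-09). The synthesis genes were thus low in every double deletion library, and so were the genes of breakdown. TPS2, the phosphatase, fell by 2.40 and TPS3, a regulatory subunit, by 1.05, while NTH1, NTH2 and ATH1, which split trehalose, fell by 1.56, 0.76 and 0.75. PGM2, a phosphoglucomutase that supplies glucose-1-phosphate, had 14.6, 14.8 and 15 CPM in the double deletion against 125, 129 and 129 CPM in wild type (-3.11 ± 0.10). UGP1, which makes UDP-glucose from it, fell by 1.36.

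Glycogen is the other glucose store, built on a primer by Glg1 and Glg2, extended by Gsy1 and Gsy2, branched by Glc3 and broken down by Gph1 and Gdb1. Of 14 glycogen genes, 10 fell and none rose, with a median of -1.30. GPH1 had 14.2, 14.8 and 16.2 CPM in the aged double deletion against 216, 210 and 231 CPM in aged wild type (-3.86 ± 0.12, adjusted p = 3.13e-15). The genes of both directions of the pathway were low: the synthases GSY1 and GSY2 fell by 2.87 and 2.33, GLC3 by 1.63, the primer gene GLG1 by 1.44 and the debranching enzyme gene GDB1 by 1.29. GLG2 was at -0.03 ± 0.13 (adjusted p = 0.899). IGD1, an inhibitor of debranching, fell by 2.73.

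Genes of sugar phosphorylation were read by isoenzyme. HXK1, a hexokinase used away from high glucose, had 11.7, 17.2 and 12.5 CPM in the aged double deletion against 178, 178 and 198 CPM in aged wild type (-3.78 ± 0.15, adjusted p = 4.1e-14). Glucokinase GLK1 and its paralog EMI2 fell by 2.84 and 1.88, whereas HXK2, the main hexokinase of growth on glucose, was at 0.29 ± 0.12 (adjusted p = 0.0551) and passed as higher without wild-type replicate 3 (adjusted p = 0.0249) and with DESeq2 (adjusted p = 0.0322). SOL4 of the pentose phosphate pathway had 2.11, 3.00 and 1.64 CPM in the double deletion against 46.9, 49.4 and 51.7 CPM in wild type (-4.52 ± 0.20, adjusted p = 1.08e-14), which rests on 18.5, 15 and 14 deposited counts in the double deletion libraries. GND2 and NQM1, the minor isoenzymes of 6-phosphogluconate dehydrogenase and transaldolase, fell by 2.63 and 1.80, and GND1, the main dehydrogenase, was at 0.17 ± 0.08 (adjusted p = 0.128, and 0.0491 without double deletion replicate 1). In glycolysis and fermentation, 4 of 18 genes fell (22.2%) and 1 rose (5.56%), against 19.7 and 16.6% of all features. The minor isoenzymes TDH1, ENO1 and PYK2 fell by 1.41, 1.04 and 1.19, and ADH1, the main alcohol dehydrogenase, by 0.60, while TDH3 (-0.04 ± 0.11, adjusted p = 0.823) and PDC1 (0.01 ± 0.10, adjusted p = 0.925) did not pass the test. ENO2 was the gene that rose (0.28 ± 0.11, adjusted p = 0.0486), and its call was lost without double deletion replicate 2 or 3 or any of the wild-type replicates (adjusted p of 0.208 without double deletion replicate 2). It was lost as well with a replicate block (adjusted p = 0.0657), on thinning (0.061) and with no filter (0.0563).

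Of 28 genes that remove oxidants, 19 fell (67.9%, against 19.7% of all features) and none rose, with a median of -0.46. CTT1 had 7.61, 9.99 and 7.64 CPM in the aged double deletion against 40.5, 46.2 and 47.6 CPM in aged wild type (-2.44 ± 0.16, adjusted p = 1.58e-10). Every double deletion library was well under every wild-type library for this catalase. Glutathione peroxidase GPX1 fell by 2.40, the peroxiredoxins TSA2 and PRX1 by 1.67 and 1.48, the superoxide dismutases SOD1 and SOD2 by 1.41 and 1.01, and the glutaredoxin GRX1 by 1.39. CTA1, the peroxisomal catalase (0.22 ± 0.12, adjusted p = 0.179), TSA1, the main peroxiredoxin (0.08 ± 0.09, adjusted p = 0.541), and TRX1, a thioredoxin (-0.06 ± 0.16, adjusted p = 0.786), did not pass.

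Chaperone genes of the heat shock factor Hsf1 moved both ways, with 6 of 24 higher and 9 lower. HSP104, a disaggregase, fell by 1.23, its mitochondrial relative HSP78 by 1.00, and the Hsp70 genes SSA1 and SSA4 by 0.96 and 0.40, whereas BTN2, a sorting factor for misfolded proteins, rose by 0.66. HSF1 itself was at 0.08 ± 0.10 (adjusted p = 0.571). Of 20 genes of glycerol and the osmotic response, 9 fell and none rose, among them GPD1 and GPP2, which make glycerol, by 1.13 and 0.97, and the reductases GCY1 and GRE3 by 1.23 and 1.08. SIP18, a desiccation protein, fell by 2.99.

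Several of the lowest genes were small or sparsely described. RGI1, a gene of energy metabolism under respiratory growth, had 3.16, 2.6 and 2.82 CPM in the aged double deletion against 55.0, 70.1 and 53.9 CPM in aged wild type (-4.36 ± 0.26). STF2, a desiccation protein that also binds ATP synthase, had 80.4, 77.7 and 64.5 CPM in the double deletion against 942, 1060 and 797 CPM in wild type (-3.65 ± 0.18). COX26, a small subunit of cytochrome oxidase, had 3.75, 5.39 and 4.46 CPM in the double deletion against 50.4, 63.9 and 45.7 CPM in wild type (-3.59 ± 0.23). In all of these the double deletion libraries lay together at the bottom, and EGO4 (-3.37 ± 0.20), DCS2 (-2.90 ± 0.13) and GAD1, glutamate decarboxylase (-2.86 ± 0.10), did the same. YER067C-A (-4.61 ± 0.28), YER066C-A (-3.99 ± 0.25) and YFR052C-A (-3.22 ± 0.23) have locus names that adjoin RGI1 or HXK1, the annotation used does not place them, and reads shared with those genes were not examined.

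Genes upstream of the factors moved as well. RAS2, a GTPase that activates adenylate cyclase, had 127, 123 and 148 CPM in the aged double deletion against 259, 255 and 245 CPM in aged wild type (-0.93 ± 0.08, adjusted p = 8.76e-09), with no overlap between groups. Of 15 genes of the Ras and protein kinase A pathway, 7 fell (46.7%) and 2 rose (13.3%), against 19.7 and 16.6% of all features. With library totals, or with all libraries thinned to the smallest, 5 fell. Besides RAS2, TPK2, a catalytic subunit of the kinase, fell by 0.84, adenylate cyclase CYR1 by 0.50 and the Ras inhibitor IRA2 by 0.48, while RAS1 rose by 0.26. Of 23 stress regulators, MSN2 and MSN4 among them, 11 fell (47.8%) and 1 rose (4.35%), and with library totals 7 fell. The kinase YAK1 fell by 1.35, the factors USV1 and GIS1 by 1.66 and 0.66, and YAP1 of the oxidant response was at -0.06 ± 0.07 (adjusted p = 0.517).

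Nuclear genes of the respiratory chain, which passes electrons to oxygen in mitochondria, were lower as a group. Of 38 genes, 32 fell and none rose, with a median of -0.59. COX6, a subunit of cytochrome oxidase, had 124, 109 and 143 CPM in the aged double deletion against 225, 253 and 238 CPM in aged wild type (-0.93 ± 0.14, adjusted p = 2.09e-05). The groups did not overlap, and the spread among double deletion libraries was the wider relative to its mean. CYC7 and COX5B, isoforms known from growth at low oxygen, fell by 2.82 and 1.58, and subunits of the bc1 complex, QCR7, QCR10 and RIP1, by 1.14, 1.13 and 1.02. The alternative dehydrogenase NDI1 fell by 1.06, COX13 by 1.11 and HAP4, an activator of respiratory genes, by 0.82, whereas CYC1, the main cytochrome c, was at -0.20 ± 0.11 (adjusted p = 0.183). Of 16 genes of the tricarboxylic acid cycle, 9 fell (56.2%) and 1 rose (6.25%), against 19.7 and 16.6% of all features. MDH1 was lower by 1.09, SDH1 by 0.79, KGD1 by 0.75 and citrate synthase CIT1 by 0.69. Mitochondrially encoded COX1 had 419, 394 and 189 CPM in the double deletion against 454, 474 and 409 CPM in wild type, and did not pass (-0.42 ± 0.21, adjusted p = 0.126, and 0.0455 without double deletion replicate 1).

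Protein breakdown genes were also lower. Of 33 proteasome genes, 23 fell and none rose, with a median of -0.35, and 15 fell with library totals. RPN8, a lid subunit, had 580, 557 and 543 CPM in the aged double deletion against 906, 1030 and 851 CPM in aged wild type (-0.73 ± 0.12, adjusted p = 5.76e-05). PRE1 of the core fell by 0.74 and RPN11, the deubiquitinase of the lid, by 0.71, while RPN4, the activator of proteasome genes, was at -0.21 ± 0.09 (adjusted p = 0.063, and 0.0341 without double deletion replicate 1). Of 31 autophagy genes, 14 fell (45.2%) and 1 rose (3.23%), against 19.7 and 16.6% of all features, and 9 fell when all libraries were thinned to the smallest. ATG39, a receptor for autophagy of the nucleus, fell by 1.57, and ATG5 rose by 0.45. In the vacuole, 6 of 11 proteolysis genes fell, among them the protease inhibitors TFS1 by 1.64 and PBI2 by 1.29 and the aminopeptidase APE1 by 1.06. The inhibitor PAI3 had 5.51, 5.99 and 5.87 CPM in the double deletion against 34.4, 39.8 and 30.9 CPM in wild type. Of 19 genes of sirtuins and NAD metabolism, 8 fell, led by PNC1, the nicotinamidase, with 74.6, 69.7 and 84.1 CPM in the double deletion against 465, 437 and 465 CPM in wild type (-2.58 ± 0.08, adjusted p = 6.34e-15). BNA1 of NAD synthesis fell by 1.64. The histone deacetylase gene SIR2 (0.13 ± 0.12, adjusted p = 0.417) and FOB1, which blocks replication forks in the ribosomal DNA (-0.02 ± 0.11, adjusted p = 0.888), did not pass.

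All 6 biotin genes were lower in aged double deletion cells, which grew without added biotin. The pathway takes up a precursor through Bio5, converts them with Bio3, Bio4 and Bio2, takes up biotin itself with Vht1 and attaches it to enzymes with Bpl1. BIO2, biotin synthase, had 374, 364 and 410 CPM in the aged double deletion against 830, 845 and 802 CPM in aged wild type (-1.11 ± 0.08, adjusted p = 1.36e-09). BIO5 had 46.1, 44.3 and 45 CPM in the double deletion against 102, 80.7 and 96.5 CPM in wild type (-1.04 ± 0.13, adjusted p = 2.12e-06). No double deletion library reached any wild-type library for either gene. BIO3 fell by 1.18, BIO4 by 1.02, BPL1 by 0.40 and VHT1 by 0.48, and the call on VHT1 was lost with library totals (adjusted p = 0.0629). Of their 6 promoters, 1, that of BIO2, held an AGGGG match. BIO3, BIO4 and BIO5 lie side by side on chromosome XIV.

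Ribosome biogenesis genes, whose products make and process ribosomal RNA, were mostly on the higher side. Among 104 genes, 82 rose (78.8%) and 3 fell (2.88%), against 16.6 and 19.7% of all features. Their median was 0.42, and 82 had no overlap between groups with the double deletion above. IMP4, a component of the small-subunit processome, had 119, 124 and 132 CPM in the aged double deletion against 76.1, 72.8 and 80.1 CPM in aged wild type (0.71 ± 0.09, adjusted p = 4.86e-06). NSR1, a nucleolar protein, had 479, 506 and 493 CPM in the double deletion against 374, 372 and 350 CPM in wild type (0.43 ± 0.07, adjusted p = 8.74e-05). The differences were modest in size but apart in every library. The helicases DBP8 and DBP2 rose by 0.96 and 0.86, UTP18 by 0.88, the GTPase NOG1 by 0.80 and RPA190, the largest subunit of RNA polymerase I, by 0.38, while NOP56 was at 0.10 ± 0.09 (adjusted p = 0.408). The 3 that fell were RRP7 (-0.51 ± 0.14), RPA34 (-0.34 ± 0.13) and RRP14 (-0.33 ± 0.11), and the calls on RPA34 and RRP14 were lost with library totals (adjusted p = 0.16 for each). Both were also lost without double deletion replicate 2 (adjusted p = 0.211 and 0.154), wild-type replicate 1 (0.0588 and 0.091) or wild-type replicate 2 (0.184 and 0.132), and RPA34 without double deletion replicate 1 (0.17).

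Promoters of this group are known for another element, PAC, spelled GCGATGAG or, on the other strand, CTCATCGC. It was found in 53 of the 104 promoters (51.0%), against 4.9% of all 5916, and 3 promoters in all held an AGGGG match that shared bases with a PAC match. The windows of IMP4, at chrXIV:485427-485546 (plus strand), and NSR1, at chrVII:807729-807848 (minus strand), are shown as examples from R64 of a match on either strand, with the match in capitals.
IMP4: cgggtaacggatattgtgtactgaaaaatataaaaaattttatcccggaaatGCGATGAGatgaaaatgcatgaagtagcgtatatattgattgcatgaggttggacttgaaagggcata
NSR1: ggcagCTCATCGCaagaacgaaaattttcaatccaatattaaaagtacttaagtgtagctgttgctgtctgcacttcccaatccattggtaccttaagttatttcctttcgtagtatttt

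Cytosolic ribosomal protein genes were counted apart. Over all features, 16.6% rose and 19.7% fell. Of 81 genes of the large subunit, 2 rose (2.47%) and 19 fell (23.5%), and of 56 of the small subunit, 5 rose (8.93%) and 10 fell (17.9%). These counts rested on single libraries: without double deletion replicate 2, 9 and 2 fell, and without wild-type replicate 2, 8 and 3 fell, and without wild-type replicate 1, 5 of the small subunit fell. With each of the 6 libraries left out in turn, 0 to 2 of the large and 1 to 4 of the small subunit rose. The large subunit had none higher without double deletion replicate 2 or 3 or wild-type replicate 1 and 1 without wild-type replicate 2. The small subunit had 1 higher without double deletion replicate 3 or wild-type replicate 2, 2 without double deletion replicate 1 or wild-type replicate 1, and 3 without wild-type replicate 3. Many are pairs of near-identical copies, so reads may be split between them. Mitochondrial ribosomal protein genes fell in 25 of 71 cases and rose in none, and fell in 16 without wild-type replicate 2.

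Genes of zinc uptake, which the zinc-sensing activator Zap1 is known to switch on, were higher. Of 16, 11 rose and 1 fell, their median was 0.55, and their summed level was 9890 to 10700 CPM in the aged double deletion against 5020 to 5160 CPM in aged wild type. ZPS1, a cell surface protein of the zinc response, had 5600, 4710 and 5780 CPM in the double deletion against 2250, 2300 and 2140 CPM in wild type (1.26 ± 0.12, adjusted p = 5.42e-08). ZRT1, the high-affinity zinc importer, had 2090, 2130 and 1990 CPM in the double deletion against 1070, 985 and 1060 CPM in wild type (1.00 ± 0.09, adjusted p = 5.67e-08). Every double deletion library stood above every wild-type library for both. ZRT3, which releases zinc from the vacuole, rose by 0.98, FET4 by 0.68, ZRC1, which loads the vacuole, by 0.66 and ADH4 by 0.45, while IZH4 fell by 0.46.

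VEL1 and YOR387C, similar and sparsely described genes known to be induced when zinc is scarce, rose most of this group. VEL1 (chromosome VII, 11110 to 11730) had 495, 514 and 430 CPM in the aged double deletion against 123, 120 and 122 CPM in aged wild type (1.98 ± 0.09, adjusted p = 1.48e-12). YOR387C (chromosome XV, 1069621 to 1070241) had 334, 346 and 279 CPM in the double deletion against 92.2, 84.9 and 98.7 CPM in wild type (1.80 ± 0.10, adjusted p = 4.03e-11). The genes are each 621 bases long and 92.4% identical, so part of their reads may have been shared between them. The zinc-responsive element in its full palindromic form, which reads the same on both strands, was found in 9 of 5916 promoters (0.152%) and in 2 of the 16 of the list. Windows from R64 show the match in capitals for ZRT1, at chrVII:20769-20888 (plus strand). Those of VEL1, at chrVII:10930-11049 (plus strand), and YOR387C, at chrXV:1070302-1070421 (minus strand), hold no match and differ from each other at 1 of 120 positions. The likeness does not hold for the whole promoters, which differ at 183 of 500 positions (63.4% identical) when set base against base without gaps.
ZRT1: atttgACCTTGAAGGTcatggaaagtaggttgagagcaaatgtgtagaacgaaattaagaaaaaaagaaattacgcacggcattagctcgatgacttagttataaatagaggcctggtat
VEL1: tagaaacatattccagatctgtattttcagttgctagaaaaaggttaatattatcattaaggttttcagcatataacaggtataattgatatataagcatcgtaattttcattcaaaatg
YOR387C: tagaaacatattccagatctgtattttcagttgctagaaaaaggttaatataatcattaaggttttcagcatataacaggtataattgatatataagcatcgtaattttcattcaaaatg

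Phosphate genes followed with 9 of 20 higher and 1 lower. PHO84, the high-affinity phosphate importer, had 53.9, 58.3 and 48.6 CPM in the aged double deletion against 16.5, 14.1 and 15.2 CPM in aged wild type (1.81 ± 0.12, adjusted p = 1.86e-10). Its values were apart by a wide margin. SPL2, a regulator of phosphate uptake, rose by 1.43 and PHO12, an acid phosphatase nearly identical to PHO11, by 1.05, whereas PHM8, a nucleotide phosphatase, fell by 1.84. Among 30 iron genes, 11 rose (36.7%) and 4 fell (13.3%), with 6 higher without double deletion replicate 1 and 7 without wild-type replicate 2. SIT1, a siderophore importer, rose by 0.59 and FIT2, a siderophore-binding wall protein, fell by 0.88.

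Biosynthetic genes were on the higher side. Of 26 ergosterol genes, 15 rose and 1 fell, with ERG11, the sterol demethylase, at 944, 865 and 877 CPM in the aged double deletion against 484, 400 and 502 CPM in aged wild type (0.95 ± 0.13, adjusted p = 7.16e-06). ERG5 rose by 0.83, HMG1 of the mevalonate step by 0.63 and the sterol regulator UPC2 by 0.55, while ERG28, a scaffold of the pathway, fell by 0.53. Of 54 amino acid synthesis genes, 28 rose and 2 fell, with ILV2 higher by 0.65, HIS4 by 0.46 and GCN4, their activator, by 0.45, and with GDH3, a glutamate dehydrogenase isoenzyme of nonfermentative growth, lower by 0.66. Of 16 arginine genes, 8 rose and 1 fell, with ARG3 higher by 1.03 and ARG5,6 by 0.87, and CAR1 of arginine breakdown at -0.01 ± 0.12 (adjusted p = 0.963). Of 29 sulfur genes, 10 rose and 2 fell, among them MET17 by 0.68 and SAM1, which makes S-adenosylmethionine, by 0.70. FCY2, an importer of cytosine and purines, and FUI1, an importer of uridine, rose by 1.27 and 1.18.

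Of 18 hexose carrier and sensor genes, 3 rose, 4 fell and 11 did not pass the test, shares near those of all features (16.7% higher and 22.2% lower, against 16.6 and 19.7%). Among those that passed, HXT1 and HXT3, low-affinity carriers of high glucose, rose by 0.67 and 0.58, while HXT4, HXT6 and HXT7, carriers of higher affinity, fell by 1.12, 1.63 and 1.74. HXT5 was also lower, a call lost with library totals (adjusted p = 0.0802) and without double deletion replicate 1 (adjusted p = 0.116). Whether direction went with affinity was not tested, and not every gene that passed is named. HXT6 and HXT7 are nearly identical, and the counting of reads shared by them is not given in the sources used here. The repressors of the glucose response MIG2 and MIG3 rose by 0.91 and 1.00, and SUC2, the invertase gene that Mig2 is known to help repress, was at 0.01 ± 0.12 (adjusted p = 0.949). SOK2, a regulator downstream of protein kinase A, had 82.8, 83.5 and 71.2 CPM in the aged double deletion against 36.8, 34.9 and 37.9 CPM in aged wild type (1.11 ± 0.08, adjusted p = 1.5e-09).

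Cell wall and cell-type genes were read for what the samples held. Of 23 cell wall genes, 12 rose and 2 fell, with the glucanase gene BGL2 higher by 0.77, the glucan synthase GSC2 by 0.72 and the kinase gene KDX1 by 0.98, and the mannoprotein CWP1 lower by 0.91. Of 12 genes known to be expressed in daughter cells, 10 rose and none fell, and their summed level was 2140 to 2520 CPM in the aged double deletion against 1560 to 1740 CPM in aged wild type. CTS1, the chitinase that frees the daughter, had 475, 584 and 440 CPM in the double deletion against 307, 300 and 333 CPM in wild type (0.67 ± 0.13, adjusted p = 0.000362). Every double deletion library was higher, SUN4 and EGT2 of septum breakdown rose by 0.64 and 0.56, and ASH1 (0.11 ± 0.10, adjusted p = 0.449) and PRY3 (0.29 ± 0.18, adjusted p = 0.233) did not pass. The rise was not particular to aged cells. In young cells the 12 genes summed to 2000 to 2330 CPM in the double deletion against 1350 to 1420 CPM in wild type. Their median log2 fold change was 0.53 in young and 0.50 in aged cells. As a list, the daughter genes moved with the groups beside every result given here, and the part of daughter cells in those results was not tested.

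Genes of the alpha mating type, that of these strains, rose in 4 of 5 cases, with a summed level of 4240 to 4660 CPM in the aged double deletion against 3690 to 3990 CPM in aged wild type. SAG1, the alpha agglutinin, had 678, 702 and 597 CPM in the double deletion against 322, 291 and 340 CPM in wild type (1.05 ± 0.09, adjusted p = 1.83e-08). The pheromone gene MF(ALPHA)1 was at 0.05 ± 0.10 (adjusted p = 0.711). Genes specific to a cells summed to 55.9 to 58.1 CPM in the double deletion and 40.6 to 43.4 CPM in wild type, with 3 of 7 higher and none at 0. Of 20 haploid and pheromone genes, 10 rose and none fell, FUS1 and PRM1 of cell fusion by 0.86 and 0.98. Meiosis genes summed to 108 to 112 CPM in the double deletion against 116 to 122 CPM in wild type.

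More ribosomal DNA features were higher than lower in the aged double deletion, and RRT15, grouped with them here, had the highest log2 fold change of the named genes. RRT15 (YLR162W-A, chromosome XII, 490406 to 490594) had 3100, 3590 and 2540 CPM in the aged double deletion against 0.778, 1.66 and 1.32 CPM in aged wild type (11.23 ± 0.25, adjusted p = 2.54e-16). The deposited counts behind it were 26487.5, 17963 and 21608 in the double deletion against 26.5, 69.5 and 63.5 in wild type. No other group of the study had such a level: the young double deletion stood at 0.888, 0.959 and 0.703 CPM and the aged msn2 deletion at 0.573, 0.480 and 0.872 CPM. Of 15 ribosomal DNA features, RRT15 among them, 8 rose and 1 fell. The 1 that fell was the spacer ETS2-2 (-0.54 ± 0.16), whose call was lost without wild-type replicate 2 (adjusted p = 0.0748) and with library totals (adjusted p = 0.0574). RDN18-1, the 18S ribosomal RNA, rose by 2.67 and the 35S precursor features RDN37-1 and RDN37-2 by 1.95 and 1.69, while the 5S RNA RDN5-1 was at -0.18 ± 0.18 (adjusted p = 0.474). The copies of the ribosomal DNA repeat are near identical, so their features share reads. The libraries were made from polyA RNA. The share of ribosomal DNA features in all counts moved with the groups, but it includes RRT15. These features summed to 3040 to 4150 CPM in the aged double deletion, most of it RRT15, against 550 to 694 CPM in aged wild type. The share is thus not separate from the level of RRT15, and what lay behind these values was not tested.

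**Figure D3:**
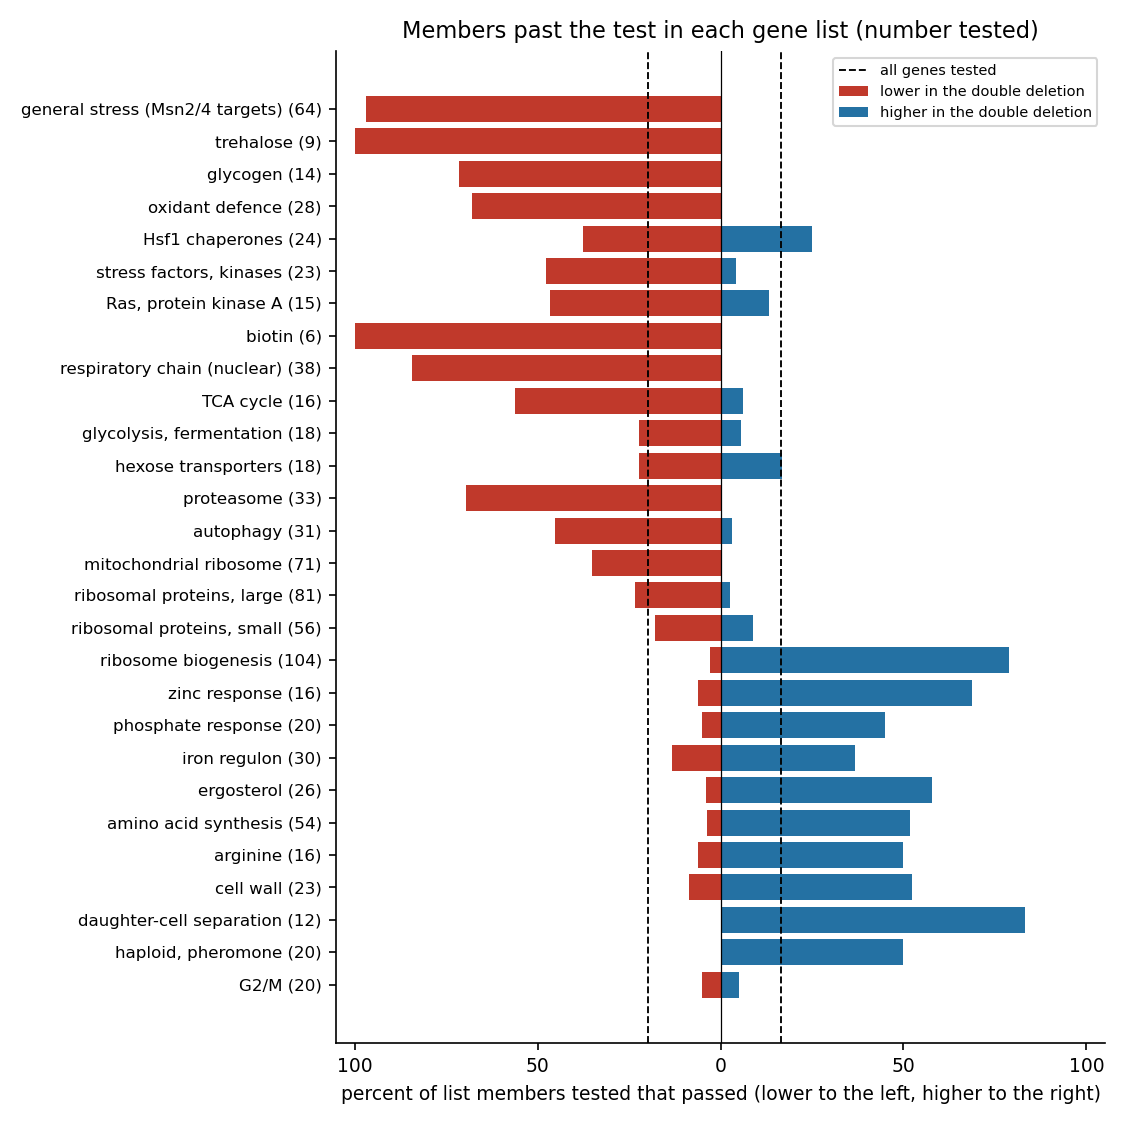
Percentage of tested members (x axis) that were lower (left) and higher (right) in the aged double deletion than in aged wild type, for 28 gene lists (rows), at an adjusted p under 0.05. Dashed lines mark all features, 19.7% lower and 16.6% higher; trehalose, biotin and Msn2 and Msn4 target genes lie at or near 100% lower, and ribosome biogenesis lies at 78.8% higher.

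Members of several other lists moved both ways, where 16.6% of all features rose and 19.7% fell. Histone genes rose in 2 and fell in 2 of 10 cases, G2/M genes in 1 and 1 of 20 (5.0% each), DNA damage genes in 4 and 3 of 19, and genes of the response to low oxygen in 4 and 4 of 20. Drug efflux genes moved both ways, with the pump gene PDR5 higher by 0.89 and the polyamine exporter TPO4 lower by 2.30. Among repair genes, MAG1, a DNA glycosylase, fell by 1.35 and PHR1, a photolyase, by 1.24, while HUG1, an inhibitor of ribonucleotide reductase, rose by 0.90. Fatty acid oxidation genes, by contrast, fell in 5 of 16 (31.2%) and rose in none.

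Whether the deletions had the same effect in aged and in young cells was tested as a difference of differences. Of 6833 features, 1106 (16.2%) passed, 491 with the effect higher and 615 with it lower in aged cells, and with library totals the split was 231 and 671. Thinned to the smallest library, 648 passed. The aged double deletion libraries enter both this comparison and the one above, so aged effects are given beside the young ones with no count of overlap. Aged cells also differ from young ones in bead capture and in growth, which cannot be told apart from age here.

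The stress genes divided in this test. Of the 64 Msn2 and Msn4 target genes, 41 were lowered more in aged than in young cells and 7 less, with median effects of -1.76 in aged and -1.01 in young cells. HSP26 had 51.7, 55.1 and 54.3 CPM in the aged double deletion against 287, 301 and 297 CPM in aged wild type, but 10.5, 11.4 and 10.0 CPM in the young double deletion against 10.3, 15.1 and 12.4 CPM in young wild type (difference -2.22). Its deficit was seen at 24 h, when wild-type levels were high, and young groups overlapped. HSP30, a membrane stress protein, differed by -2.10, SIP18 by -2.23, GND2 by -2.40 and HSP104 by -1.14. HSP12 went the other way: 9.13, 9.66 and 10.9 CPM in the young double deletion against 606, 786 and 698 CPM in young wild type gave a young effect of -6.14, against -4.10 in aged cells (difference 2.03). TMA10, a ribosome-associated stress protein, had 107, 100 and 96.8 CPM in the aged double deletion against 210, 234 and 190 CPM in aged wild type, and 19.4, 19.0 and 13.4 CPM in the young double deletion against 102, 166 and 114 CPM in young wild type (difference 1.83). The deficits of these genes on the log2 scale were thus smaller at 24 h. DDR2, HXK1, RTC3, HOR7 and UBI4 were the others of the 7. The call on DDR2 was lost on thinning. For HXK1, RTC3, HOR7, UBI4 and HSP104 this difference was not checked under thinning or the other alternatives.

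Biotin and ribosome biogenesis genes also differed by age. For all 6 biotin genes the aged effect was the lower: BIO3 was at -1.18 in aged and 0.15 in young cells (difference -1.32), BIO5 at -1.04 and 0.22 (-1.26), VHT1 at -0.48 and 0.57 (-1.05), BIO4 at -1.02 and -0.27 (-0.74), BIO2 at -1.11 and -0.42 (-0.68) and BPL1 differed by -0.42, a call lost on thinning. Of 104 ribosome biogenesis genes, 49 had the higher effect in aged cells and none the lower, with a median of 0.42 in aged and -0.02 in young cells. Zinc genes split: ZPS1 (1.42), VEL1 (2.00) and YOR387C (2.15) differed between ages, and 4 of 16 in all had the higher and 3 the lower effect in aged cells. SOK2 differed by 1.21 and HUG1 by 1.87. The differences of ZPS1 and SOK2 were not checked under thinning or the other alternatives. RRT15 differed by 11.97.

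**Figure D4:**
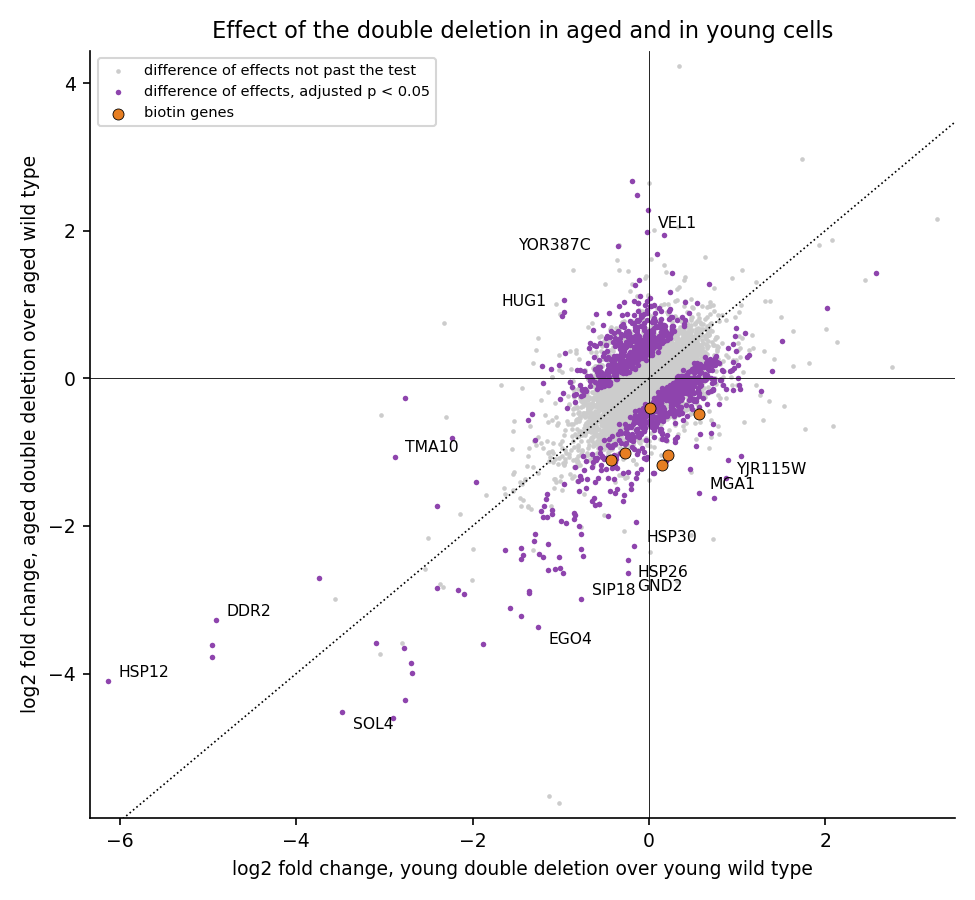
Log2 fold change of the double deletion over wild type in aged cells (y axis) against that in young cells (x axis), 1 point per feature, with features whose effects differed between ages in purple and biotin genes in orange; RRT15 is not drawn. HSP12 lies at -4.10 aged and -6.14 young, and the biotin genes lie below the diagonal.

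Loss of MSN4 on top of MSN2 was read against the aged msn2 deletion. The aged double deletion differed from it in 1696 of 6833 features (24.8%), 773 (11.3%) higher and 923 (13.5%) lower, and with library totals the split was 286 and 999. With RLE factors, another scaling, the split was 918 higher and 857 lower, and with DESeq2 1034 and 937. Which side held more features thus depended on the processing. Without double deletion replicate 3 the count of features that differed was 1063, and without msn2 deletion replicate 3 it was 1040. Of the 64 Msn2 and Msn4 target genes, 57 were lower in the double deletion than in the msn2 deletion and none was higher, with a median of -0.94, and the single deletion itself had a median of -0.77 against aged wild type. In 59 of the 64, the mean level of the msn2 deletion lay between those of the double deletion and wild type. The comparisons share libraries, so their values are only set side by side.

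The genes lowest against the msn2 deletion, besides MSN4 itself (-2.64), were SOL4 (-2.79), COX26 (-2.75), YER067C-A (-2.56) and STF2 (-2.47). HSP12 stood at 96.2, 92.1 and 101 CPM in the aged double deletion against 330, 308 and 366 CPM in the aged msn2 deletion (-1.79). In both strains it was far under the aged wild-type level. HSP30 (-0.16) and HSP104 (-0.15), by contrast, did not pass between the deletion strains, and CTT1 was at -0.73, a call lost on thinning. All 6 biotin genes were lower than in the msn2 deletion, with the call on BPL1 lost without double deletion replicate 3 (adjusted p = 0.121) and on thinning, and BIO5 was lower by 1.59 and BIO3 by 1.30 on the log2 scale. The msn2 deletion had the list at a median of 0.06 against aged wild type. Highest against the msn2 deletion were RRT15 (12.23), RDN37-1 (2.01), RDN37-2 (1.70), YOR387C (1.43) and VEL1 (1.39).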

How the data were processed

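For 7118 features in 18 libraries, the authors deposited expected counts (estimated, with fractions) that are not scaled to depth. The submitters' processing notes name STAR 2.7.6a, cutadapt 2.6, bcl2fastq, and featureCounts from Subread 1.6.2, with build R64 (sacCer3); the counting options are not given in the sources used here. Of values above 0, 54.6% were not whole within 0.005, and counts were rounded before fitting. In all, 6040 identifiers matched the R64 annotation of RefSeq.

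All 18 libraries were fitted in edgeR 4.0.16 (R 4.3.3, limma 3.58.1) with TMM factors, filterByExpr (6833 features kept, 285 left out), 1 mean per group, 12 residual degrees of freedom and robust two-sided quasi-likelihood tests. Dispersion gave a common coefficient of biological variation of 0.0922, with 7.66 as the median of prior degrees of freedom. A gene was called at a Benjamini-Hochberg adjusted p under 0.05 over all features of a contrast. The fit was tested on simulated data. CPM carry TMM factors, log2 fold changes carry their SE, and n is 3 per group. Totals of 4078400 to 41649952 counts set the counting error, which is part of the fitted spread.

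The genes and lists were chosen with earlier results of these data known. Named genes are MSN2, MSN4 and their neighbours, the 15 highest and 15 lowest called log2 fold changes among genes without overlap between groups whose log2 CPM averaged at least 3, the leading and preset members of each list, and the extremes of the 2 other contrasts; other list members are named beside their list. Replicate numbers did not pair the libraries: residual correlations of same-numbered aged libraries were 0.04, -0.0536 and 0.0658. Alternatives were DESeq2 1.42.0, RLE factors, library totals, no filter, at least 10 CPM in 3 libraries, a replicate block, only the libraries of the contrast, thinning, removal of mitochondrial, ribosomal DNA and Ty features, and each library left out.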

Additional observations from a re-analysis of the deposited data

Results flagged for a closer look

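The effect of the double deletion differed between aged and young cells in 1106 features, by edgeR's test of the difference itself. The genes below are the extremes named by rule for this contrast, with the 6 biotin genes added. Other genes named above as differing between ages are not repeated. All values are log2 differences, the aged minus the young effect. Higher in aged cells were the effects on RRT15 (11.97), YOR387C (2.15), HSP12 (2.03), VEL1 (2.0), HUG1 (1.87), TMA10 (1.83), RDN37-1 (1.77) and DDR2 (1.65). Lower in aged cells were those on GND2 (-2.4), YJR115W (-2.23), SIP18 (-2.23), HSP26 (-2.22), MGA1 (-2.12), EGO4 (-2.11), HSP30 (-2.1) and YFR052C-A (-1.77). The 6 biotin genes were also lower: BIO3 (-1.32), BIO5 (-1.26), VHT1 (-1.05), BIO4 (-0.74), BIO2 (-0.68) and BPL1 (-0.42). The calls on RDN37-1, DDR2, MGA1 and BPL1 were lost when all libraries were thinned to the smallest total. With 3 libraries per group, single libraries were not examined as outliers.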

How the results depend on the processing

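Among the calls on named genes that were checked, none changed direction past the test. Genes at least 2-fold higher in the aged double deletion than in aged wild type numbered 66 with library totals and 28 with at least 10 CPM in 3 libraries. For the difference between ages, thinning left 648 called (293 higher, 355 lower), and library totals left 231 higher. Against the aged msn2 deletion, 286 were higher with library totals. Higher features outnumbered lower ones there with RLE factors (918 and 857) and with DESeq2 (1034 and 937). Without each library in turn, counts against aged wild type ran over 1913 to 2288 called, 847 to 1048 higher, 1066 to 1252 lower, and 36 to 57 and 204 to 231 at least 2-fold higher and lower. The difference between ages ran over 798 to 1346 called, 359 to 622 higher and 439 to 724 lower, and the comparison with the msn2 deletion over 1040 to 1632 called, 407 to 740 higher and 609 to 892 lower. With a replicate block, 2402, 1018 and 1594 genes were called in the 3 comparisons; the block assumes a pairing that the correlations of residuals do not show. DESeq2 called 2646 against aged wild type, and a fit to only those 6 libraries 2836. Of 359 values for single genes, 59 changed side of the threshold under some alternative; the causes were not tested. Depth limits low genes most, since the smallest aged double deletion library held 4078400 counts.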

Other observations

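Several further groups of the aged double deletion against aged wild type were read in the same fit, in which 16.6% of all features rose and 19.7% fell. Of 13 alcohol and aldehyde dehydrogenase genes, 3 rose and 4 fell, among them the aldehyde dehydrogenases ALD3 (-2.42 ± 0.18) and ALD4 (-1.33 ± 0.08), while ADH2, which consumes ethanol, rose by 0.47. Of 20 genes of the plasma membrane and vacuolar proton pumps, 2 rose and 7 fell, with PMP3, a small membrane protein, lower by 0.95, and 4 fell without wild-type replicate 2. Of 25 genes of the start of the cell cycle, 8 rose and 1 fell, with the cyclin CLN2 higher by 0.32 and 5 higher without double deletion replicate 2 or wild-type replicate 2. Of 16 thiamine genes, 2 rose and none fell, with the carrier THI7 higher by 0.66. Of 11 COS genes, a family of similar members near chromosome ends, COS12 rose by 0.95, and COS1 was among the 2 that fell, by 0.82. The water channel gene AQY2 had 10.4, 11.6 and 9.87 CPM in the aged double deletion against 3.89, 4.25 and 4.18 CPM in aged wild type (1.36 ± 0.18, adjusted p = 5.73e-06). HEM13 of haem synthesis and AAC3, an ADP/ATP carrier of low oxygen, rose by 0.69 and 0.83.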
